A study of Mus musculus with 4 samples.

Results

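Calcium handling genes of muscle fibres were represented by 8 genes: the pump genes Atp2a1 and Atp2a2, the release channel gene Ryr1, the buffer genes Casq1, Casq2 and Pvalb, the channel subunit gene Cacnb2 and the kinase gene Camk2a. The members were all probe sets whose platform annotation named one of these genes and no other, which gave 11 probe sets for the 8 genes, out of 12422 non-control probe sets and 8251 genes. Atp2a1, Pvalb and Camk2a had 2 probe sets each, the other 5 genes had 1, and all 11 probe sets read at or above the floor of 100 signal units on all 4 arrays. The genes were chosen by name and function, with earlier results of these data known.

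A muscle fibre contracts when calcium leaves the sarcoplasmic reticulum through the ryanodine receptor and relaxes when pumps of the SERCA family return it. Inside the reticulum calcium is held by calsequestrin, and in the cytosol of fast fibres it is held by parvalbumin. Fast fibres use the pump encoded by Atp2a1, while slow fibres and heart muscle use the one encoded by Atp2a2. Calcium also drives signalling, through calmodulin-dependent kinases and the phosphatase calcineurin.

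The RNA came from the gastrocnemius of mice, a calf muscle in which fast fibres predominate, and was hybridized to MG-U74Av2 oligonucleotide arrays. The intact group had received no operation or injection that the labels name. The adrenalectomized group had lost the adrenal glands 1 week earlier, and 2 further adrenalectomized groups had in addition received cortisol, 0.1 mg intraperitoneally, 3 h or 24 h before dissection. Adrenalectomized against intact addresses the loss of adrenal hormones, which cannot be told apart here from the operation. The cortisol groups against adrenalectomized address an early and a later response to the hormone or to its injection. Strain, sex, age, time of day and a vehicle injection were not named in the labels. Each group was 1 pool of 10 mice read on 1 array, so no comparison has a replicate check, no p-value can be given, and the number of arrays limits the precision. The arrays also ran in 4 different fluidics modules, which cannot be told apart from the groups.

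Values are linear signals scaled so that the trimmed mean of each array was 500, and a log2 ratio of 1 is a 2-fold difference. The only error in the data comes from genes with 2 probe sets. From the disagreement between such sets, the error SD of a log2 ratio was 0.27 for adrenalectomized against intact where the dimmer set read 100 to 500 and 0.16 where it read 500 or more. For 3 h against adrenalectomized it was 0.32 and 0.18, and for 24 h against adrenalectomized 0.35 and 0.24. This SD includes no variation between mice or pools. Markers of skeletal muscle were present on all arrays: all 8 of those with a probe set reached the floor, among them the actin gene Acta1 (30827 to 34253) and the fast myosin gene Myh4 (33149 to 34919). Epidermis and hair markers, summed over 17 genes, read 1787 on the intact array, 1713 after adrenalectomy, 12491 at 3 h and 3735 at 24 h, and hepatocyte markers, summed over 10 genes, read 4388, 3017, 1413 and 994 in that order.

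**Figure D1:**
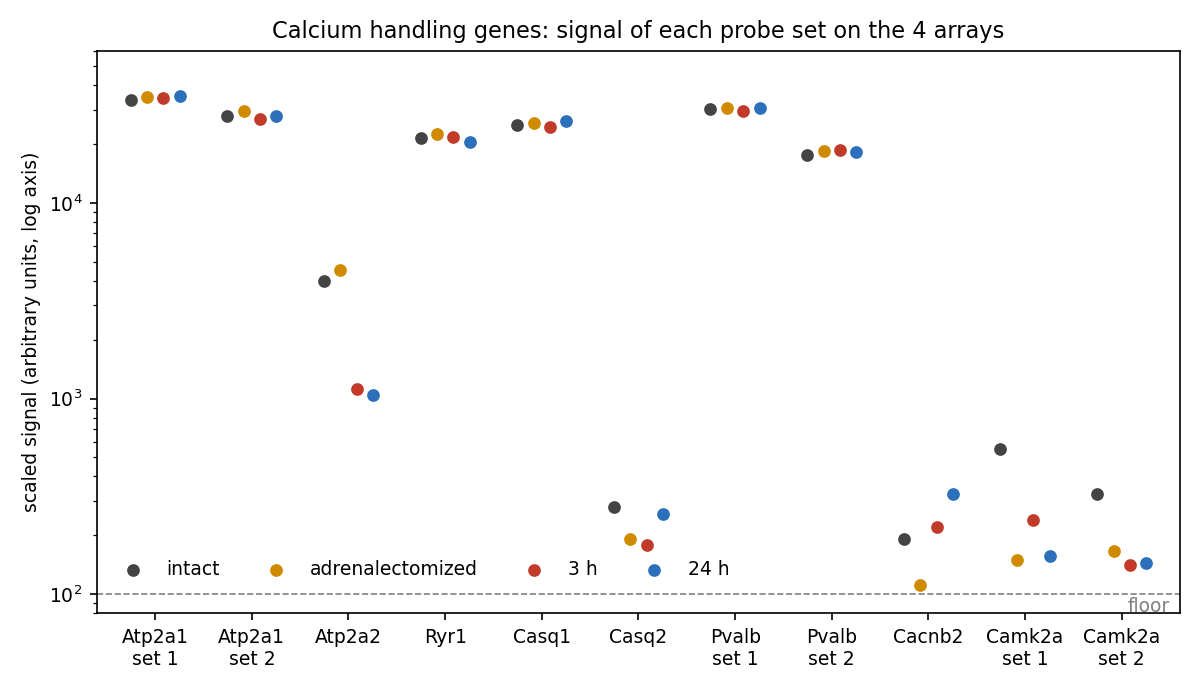
Signal of each of the 11 probe sets (y axis, arbitrary units on a log axis) on the 4 arrays, with 1 point per array and the floor of 100 as a dashed line; set 1 is the brighter probe set of a gene. Atp2a1, Ryr1, Casq1 and Pvalb stay within 1.11-fold over the arrays, Atp2a2 reads 3971 or more on the first 2 arrays and 1119 or less on the last 2, and Casq2, Cacnb2 and Camk2a read under 600 throughout.

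The members fell into a bright set that differed little and a few genes that differed a lot. Atp2a2 was about 4-fold lower on both cortisol arrays, Camk2a was highest in intact mice, and Cacnb2 was lowest after adrenalectomy and highest at 24 h. The bright genes Atp2a1, Ryr1, Casq1 and Pvalb were almost level. Past 2-fold in adrenalectomized against intact lay 1 of the 8 members, Camk2a by its brighter probe set alone, beside 0.72% of all 6112 genes. At 3 h against adrenalectomized it was 1 of 8 (Atp2a2), where 3.03% of 6168 genes did, and at 24 h against adrenalectomized 2 of 8 (Atp2a2 and Cacnb2), where 2.33% of 6228 genes did. The median log2 ratio of the 8 members was 0.03, -0.06 and 0.03 in these comparisons, beside 0.01, -0.02 and 0.01 over all genes. The adrenalectomized array enters all 3 comparisons.

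Past 1.5-fold lay 2 members after adrenalectomy (4.91% of all genes), 3 at 3 h (9.82%) and 2 at 24 h (10%). Dim genes pass such a limit more often: of genes with a mean signal from 100 to 600, the range that holds Casq2, Cacnb2 and Camk2a, 1.2%, 4.05% and 3.57% passed 2-fold in the same order. Over all 4 arrays, 22 of 5452 genes that reached the floor throughout had a range as wide as Atp2a2 (0.404%, the gene itself included). The number was 40 for Camk2a by its brighter set (0.734%) and 67 for Cacnb2 (1.23%). For Casq2 it was 979 (18.0%), and for Ryr1, Casq1, Atp2a1 and Pvalb from 4824 to 5399. The other set of Camk2a had a range of 1.19 on the log2 scale, beside 1.88 for the brighter set.

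**Figure D2:**
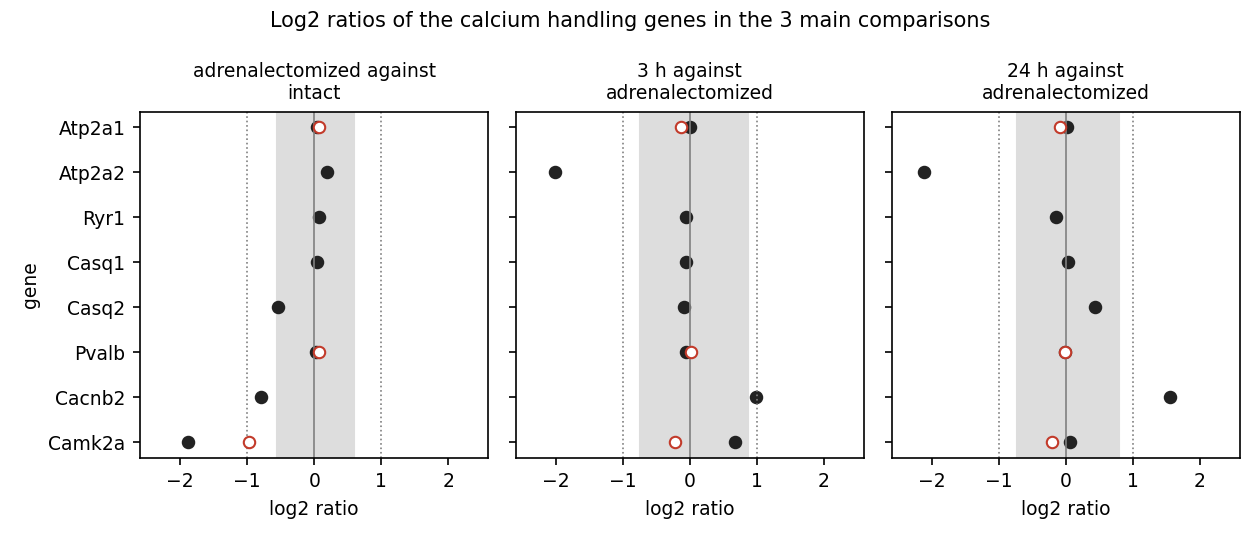
Log2 ratio (x axis) of each of the 8 genes (y axis) in the 3 main comparisons; filled points are the brighter or only probe set, open points the other probe set, the grey band holds the central 95% of all genes and dotted lines mark 2-fold. Atp2a2 stands at -2.02 and -2.12 in the cortisol comparisons, Cacnb2 at 0.98 and 1.56, and Camk2a at -1.88 and, by its other probe set, -0.97 after adrenalectomy.

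Among the pumps, Atp2a2, which encodes the slow fibre and heart pump SERCA2, read 3971 in intact mice, 4545 after adrenalectomy, 1119 at 3 h and 1045 at 24 h. The signals were high on the arrays without cortisol and low on both arrays with it, with nothing between. The fall against adrenalectomized mice was 4.06-fold at 3 h (log2 ratio -2.02) and 4.35-fold at 24 h (-2.12), many times the error SD of bright genes. Against intact mice the signal was 3.55-fold lower at 3 h and 3.80-fold lower at 24 h, and between 3 h and 24 h the log2 ratio was -0.10, less than the error SD of 0.23. Adrenalectomized against intact gave 0.19, inside the central 95% of all genes (-0.56 to 0.60). The log2 ratio stayed between -2.45 and -1.996 at 3 h and between -2.15 and -2.06 at 24 h over the alternative settings that gave Atp2a2 a value. The single probe set of Atp2a2 carries a platform suffix for probes that also match further transcripts, which may contribute to its signal.

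Atp2a1, which encodes the fast fibre pump SERCA1, read 33698 on the intact array, 34677 after adrenalectomy, 34575 at 3 h and 35146 at 24 h, and its other probe set read 27905, 29479, 26999 and 27697. No array stood apart by either set. The log2 ratios of the brighter set were 0.04 after adrenalectomy, -0.00 at 3 h and 0.02 at 24 h against adrenalectomized, and those of the other set 0.08, -0.13 and -0.09. Both sets were among the 13 brightest of all 12422 probe sets on all arrays and carry a suffix for shared or relaxed probes.

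The pattern of Atp2a2 was most like those of slow fibre contractile genes. By the root mean square difference of log2 signals centred over the 4 arrays, the 3 nearest of 5452 genes were the slow myosin heavy chain gene Myh7 (0.04), the slow tropomyosin gene Tpm3 (0.06) and the slow troponin gene Tnnt1 (0.07), where the median gene stood at 0.995. Tnnt1 read 9315, 11148, 2711 and 2280 in group order. Of 11 slow fibre contractile genes with a probe set, 7 were at least 2-fold lower at 3 h, by 2.66 to 4.11-fold, and 7 at 24 h, by 2.92 to 4.89-fold. The log2 ratios of the other 4 lay between -0.57 and -0.26 at 3 h and between -0.55 and 0.09 at 24 h. Over all genes, 72 of 6168 were at least 2-fold lower at 3 h and 66 of 6228 at 24 h. These counts take each gene by its brightest probe set. With all probe sets averaged, the median log2 ratio of the slow list was smaller in size, -1.004 at 3 h and -1.04 at 24 h. Of 13 fast fibre contractile genes compared, none passed 1.5-fold in these comparisons, and neither did Atp2a1. Both lists are wider than their name: the fast list also holds genes of glycolytic enzymes, and the slow list the myoglobin gene Mb. In pooled muscle, fewer slow fibres in the sample and less RNA per slow fibre cannot be told apart. The summed signal of the 11 slow fibre genes was 75581, 82143, 32237 and 31218 in group order. The hepatocyte sum was also lower and the epidermis sum higher on the cortisol arrays, with values given above, and their part in the result for Atp2a2 was not tested.

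**Figure D3:**
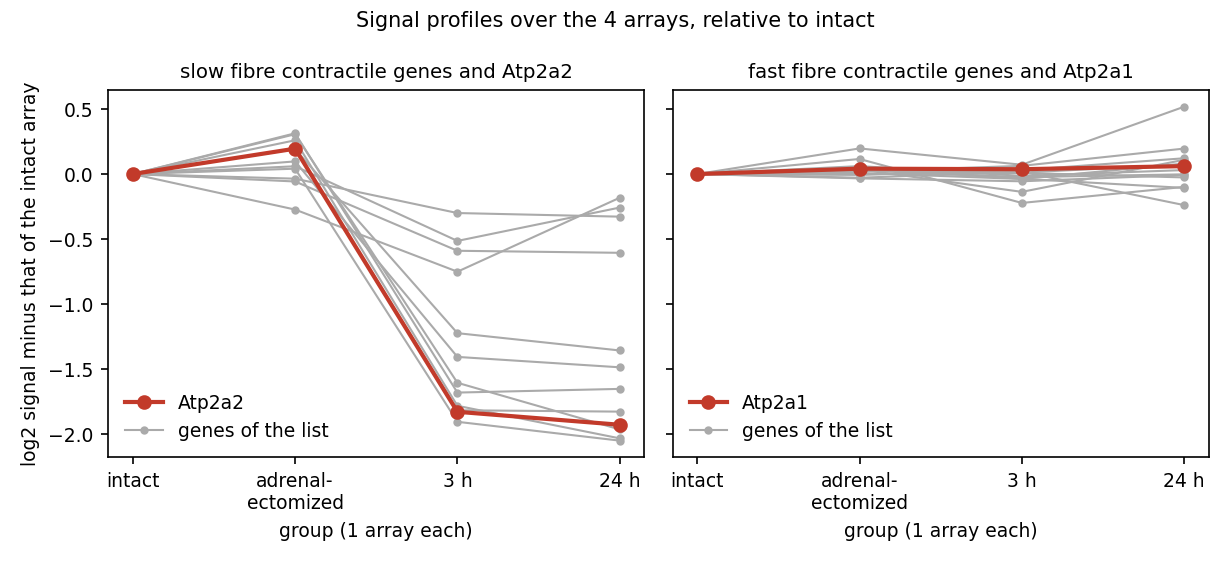
Log2 signal minus that of the intact array (y axis) over the 4 groups (x axis, 1 array each), for 11 genes of the slow fibre list with Atp2a2 in red (left) and 13 genes of the fast fibre list with Atp2a1 in red (right). Atp2a2 runs with the 7 slow genes that drop on the cortisol arrays, and Atp2a1 stays within 0.06 of the intact array.

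Heart muscle also uses Atp2a2 and Casq2. Of 10 heart markers on the array, 5 stayed below the floor on all arrays: the heart myosin genes Myh6 and Myl7, the natriuretic peptide gene Nppb, the heart troponin gene Tnnt2 and the transcription factor gene Nkx2-5. Heart troponin I, encoded by Tnni3, read at most 103. The other 4 read above the floor on all arrays. Nppa, which encodes a natriuretic peptide of the atria, read 258, 400, 225 and 307 in group order, highest after adrenalectomy and lowest at 3 h. Atp2a2 was also highest after adrenalectomy and lower at 3 h, but it was lowest at 24 h, where Nppa read above its intact value. The Nppa signal was 1.55-fold higher after adrenalectomy (log2 ratio 0.63) and 1.78-fold lower at 3 h than after adrenalectomy (-0.83), and at 24 h the log2 ratio was -0.38. Its part in the result for Atp2a2 was not tested. The myosin light chain gene Myl4 ranged from 448 to 498 and the transcription factor gene Gata4 from 392 to 498. The summed signal of the 10 markers was 10676, 12335, 13905 and 11277 in group order, most of it from Actc1, an actin gene that skeletal muscle also uses (9263 to 12499). At 3 h against adrenalectomized the log2 ratio was 0.25 for Gata4, 0.22 for Actc1 and -0.15 for Myl4.

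Ryr1, which encodes the channel that releases calcium from the reticulum, read 21578 on the intact array, 22591 after adrenalectomy, 21752 at 3 h and 20398 at 24 h. The arrays lay within 1.11-fold of each other. Its log2 ratios were 0.07 after adrenalectomy, -0.05 at 3 h and -0.15 at 24 h, all smaller than the error SD of bright genes. Casq1, a calsequestrin gene, read 25030, 25640, 24503 and 26214, with a range of 1.07-fold. Pvalb, which encodes the calcium buffer parvalbumin of fast fibres, read 30219, 30701, 29495 and 30582 by its brighter set, a range of 1.04-fold. Its other set ranged from 17516 to 18568, and the largest log2 ratio of either set was 0.08 in size. Both Pvalb sets carry a suffix for shared or relaxed probes.

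These 4 genes were among the 24 genes whose mean signal was 20000 or more. None of the 24 passed 1.5-fold in any comparison, the median range over the 4 arrays was 0.10 on the log2 scale, and the widest was 0.20. The highest signal of a non-control probe set was between 34253 and 36007 on the 4 arrays. Levelness was thus common to the brightest genes, and whether differences near the top of the signal range were compressed was not tested.

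Casq2, the calsequestrin gene of slow fibres and heart, read 278 in intact mice, 191 after adrenalectomy, 179 at 3 h and 258 at 24 h. The intact and 24 h arrays were the high ones. The signal was 1.45-fold lower after adrenalectomy (log2 ratio -0.54), which exceeds the error SD of 0.27 for dim genes and lies inside the central 95% of all genes. At 3 h the log2 ratio against adrenalectomized was -0.10 and at 24 h it was 0.43, beside error SDs of 0.32 and 0.35. Casq2, a slow fibre gene like Atp2a2, read above the floor on both cortisol arrays. A 4-fold fall from 191 or 278 would have ended below the floor, where its size could not be read. Whether Casq2 followed Atp2a2 was thus not tested at signals this dim. In the 3 main comparisons Casq2 stayed under 1.5-fold and inside the central 95% of all genes. The promoter windows of the calsequestrin pair are shown for description only (RefSeq, GRCm38.p6, from 250 bases before to 50 after the transcript start, 5′ to 3′). Capitals mark E-boxes (CANNTG on either strand), the sites of myogenic factors such as MyoD. Casq1 is at chr1:172219846-172220145, minus strand, with 60.3% G and C, and Casq2 at chr3:102086165-102086464, plus strand, with 44.7%.
Casq1: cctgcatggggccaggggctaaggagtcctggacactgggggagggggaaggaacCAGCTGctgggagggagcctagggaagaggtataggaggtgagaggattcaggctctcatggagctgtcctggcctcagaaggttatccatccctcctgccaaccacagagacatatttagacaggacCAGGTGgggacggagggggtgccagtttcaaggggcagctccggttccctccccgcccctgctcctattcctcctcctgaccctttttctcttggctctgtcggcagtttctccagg
Casq2: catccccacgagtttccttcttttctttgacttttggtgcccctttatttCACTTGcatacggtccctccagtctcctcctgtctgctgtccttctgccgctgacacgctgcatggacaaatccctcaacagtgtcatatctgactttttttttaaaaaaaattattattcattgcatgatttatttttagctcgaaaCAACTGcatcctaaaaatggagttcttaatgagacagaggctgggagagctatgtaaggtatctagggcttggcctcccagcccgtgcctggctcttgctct
Each window held 2 E-boxes. Among all 32851 windows 72.3% held at least 1, as did 6 of the 8 windows of the 6 member genes that had one. A site of the muscle factor MEF2 was matched in the Casq2 window and in 1 of the 2 Pvalb windows, where 3.19% of all windows held one. The NFAT core GGAAAA, matched on either strand in 23.4% of all windows, was in 0 of the 8. Such matches describe letters only.

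Cacnb2 encodes an accessory beta subunit of voltage-gated calcium channels, known best from heart. It read 192 in intact mice, 111 after adrenalectomy, 219.5 at 3 h and 327 at 24 h. The adrenalectomized array was the lowest, close to the floor, and the 24 h array the highest. The signal was 1.73-fold lower after adrenalectomy (log2 ratio -0.79, outside the central 95% of all genes), 1.98-fold higher at 3 h (0.98, just short of 2-fold) and 2.94-fold higher at 24 h (1.56) than in adrenalectomized mice. The last 2 lay above the upper bounds of the central 95% of all genes, 0.87 and 0.79, and exceeded the error SDs of 0.32 and 0.35. All 3 ratios rest on the dim adrenalectomized value: with a floor of 200 the log2 ratio was 0.13 at 3 h and 0.71 at 24 h, below 2-fold. Against intact mice the 24 h signal was 1.70-fold higher (0.77), inside the central 95% (-0.71 to 0.80). The 3 h signal was 1.14-fold higher than in intact mice (0.19), less than the error SD of 0.31 for dim genes. The other beta subunit genes on the list, Cacnb1, Cacnb3 and Cacnb4, had no probe set with a single symbol.

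The 2 promoter windows of Cacnb2 are shown because its signal was higher on both cortisol arrays than on the dim adrenalectomized array. Capitals mark the hexamer AGAACA, on either strand, the core of the elements that the glucocorticoid receptor binds. The first is at chr2:14604056-14604355 and the second at chr2:14823842-14824141, both on the plus strand of GRCm38.p6 and from RefSeq.
Cacnb2, first start: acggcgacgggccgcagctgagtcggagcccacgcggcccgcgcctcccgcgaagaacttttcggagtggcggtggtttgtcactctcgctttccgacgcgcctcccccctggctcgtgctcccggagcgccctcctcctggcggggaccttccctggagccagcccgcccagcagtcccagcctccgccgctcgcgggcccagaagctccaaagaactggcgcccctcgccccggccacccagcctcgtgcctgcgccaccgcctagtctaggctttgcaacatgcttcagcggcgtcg
Cacnb2, second start: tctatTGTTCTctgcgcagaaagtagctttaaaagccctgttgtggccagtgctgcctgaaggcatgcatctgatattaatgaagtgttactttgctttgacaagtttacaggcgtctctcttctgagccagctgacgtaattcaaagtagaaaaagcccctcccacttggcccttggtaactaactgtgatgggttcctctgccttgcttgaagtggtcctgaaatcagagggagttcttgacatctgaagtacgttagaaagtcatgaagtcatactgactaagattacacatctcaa
The first window held 0 such hexamers and the second held 1, which begins 245 bases before the start. Of all windows 19.0% held this hexamer, and of the 8 member windows 2 did, the other being 1 of the 2 windows of Pvalb, whose signal was level. From which start the Cacnb2 signal came was not tested.

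Camk2a encodes the alpha chain of calcium/calmodulin-dependent kinase II, a major kinase of neurons, and the same gene also gives rise to alphaKAP, an anchoring protein of skeletal muscle. By its brighter probe set it read 552 in intact mice, 149.6 after adrenalectomy, 239 at 3 h and 157 at 24 h. By its other set it read 324, 166, 141 and 144. On both sets the intact array was the highest and the 3 adrenalectomized groups were lower. The brighter set was 3.69-fold lower after adrenalectomy (log2 ratio -1.88) and the other set 1.95-fold lower (-0.97), so the sets share the direction but differ by 0.92. The error SD of 0.27 for dim genes is that of a single ratio, and a difference between 2 sets has a larger one. Against intact mice the fall was 2.31-fold and 2.29-fold at 3 h and 3.51-fold and 2.25-fold at 24 h by the 2 sets. The sets did not share a direction at 3 h against adrenalectomized, with log2 ratios of 0.67 and -0.23, and at 24 h they gave 0.07 and -0.20. No return to the intact level after cortisol was thus seen by either set at these times.

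Markers of nerve and Schwann cells summed to 4641, 4716, 4619 and 4693 over 14 genes in group order, with no array standing apart by the sum. Most of it came from the Schwann cell genes Pmp22, Mbp and Sox10 and from Stmn2 and Tubb3. The sum thus says little about the other neuronal genes. The neuronal genes Snap25, Syt1, Syp, Nefl, Nefm and Gap43 stayed below the floor on all 4 arrays, and the neurofilament gene Nefh reached it at 24 h alone, at 102. The neuronal genes Stmn2 (428 to 641) and Tubb3 (865 to 1141) read above the floor on all 4 arrays, and neither passed 1.5-fold in a main comparison. Of 7 genes of the list compared at 3 h against adrenalectomized, 1 passed 2-fold, beside 3.03% of all genes. This was the glial filament gene Gfap, at 93.6, 106, 228 and 190 in group order, 2.15-fold higher at 3 h. Gfap was low on both the intact and the adrenalectomized array, where Camk2a by its brighter set was highest and lowest. The part of nerve and glial cells in the result for Camk2a was not tested. Genes with the pattern most like Camk2a were the dynein light chain gene Dynll2, the oxytocin gene Oxt and the methyltransferase gene Icmt, at root mean square differences of 0.25, 0.33 and 0.36 over the 4 arrays, where the median gene stood at 0.77. None came as near as the neighbours of Atp2a2 did. Dynll2 read 5031 in intact mice and 1961 to 2332 on the other arrays. Camk2b, which encodes the beta chain of the same kinase, differed by no more than 0.08 on the log2 scale in the 3 main comparisons, and Camk2d, for the delta chain, read 113 in intact mice and 149 to 152 on the other arrays.

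A wider list of 60 other calcium handling genes held 35 with a probe set, of which 28 read 100 or more somewhere. Of the 27 compared, none passed 1.5-fold in adrenalectomized against intact or in 3 h against adrenalectomized, where 4.91% and 9.82% of all genes did. At 24 h 2 of 28 were higher and 1 lower by 1.5-fold, a share near the 10% of all genes that passed. The median log2 ratio was -0.02, -0.06 and -0.05. The 3 brightest genes were level: Cacna1s, the voltage sensor that gates Ryr1, ranged from 6509 to 6927, Hrc, a calcium-binding protein of the reticulum, from 5367 to 5673, and Cacng1, a subunit of the voltage sensor's complex, from 4193 to 4685. The single gene past 2-fold was Calb2, a calcium-binding protein gene best known from neurons, at 208 on the 24 h array and below the floor on the other 3, at least 2.08-fold higher than after adrenalectomy. It fell outside the naming rule, as did Camk2b, Camk2d, the genes that follow and the heart, nerve and muscle identity markers named above, and all were named after their values were seen. Sri, which encodes sorcin, a calcium-binding partner of the release channel, read 382 after adrenalectomy, 453 at 3 h and 243 at 24 h, and the calmodulin gene Calm2 read 166, 188 and 270. Genes of calcineurin were level, with log2 ratios of at most 0.16 in size for Ppp3ca, Ppp3cb and Ppp3r1, while Rcan1, which encodes an inhibitor of calcineurin and is also its target, read 2792 after adrenalectomy, 1983 at 3 h and 2134 at 24 h, log2 ratios of -0.49 and -0.39. Sln, which encodes the pump inhibitor sarcolipin, read 185, 130, 91.4 and 128 in group order, so only the 3 h array was below the floor. The heart isoform of the release channel, Ryr2, was below the floor throughout.

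**Figure D4:**
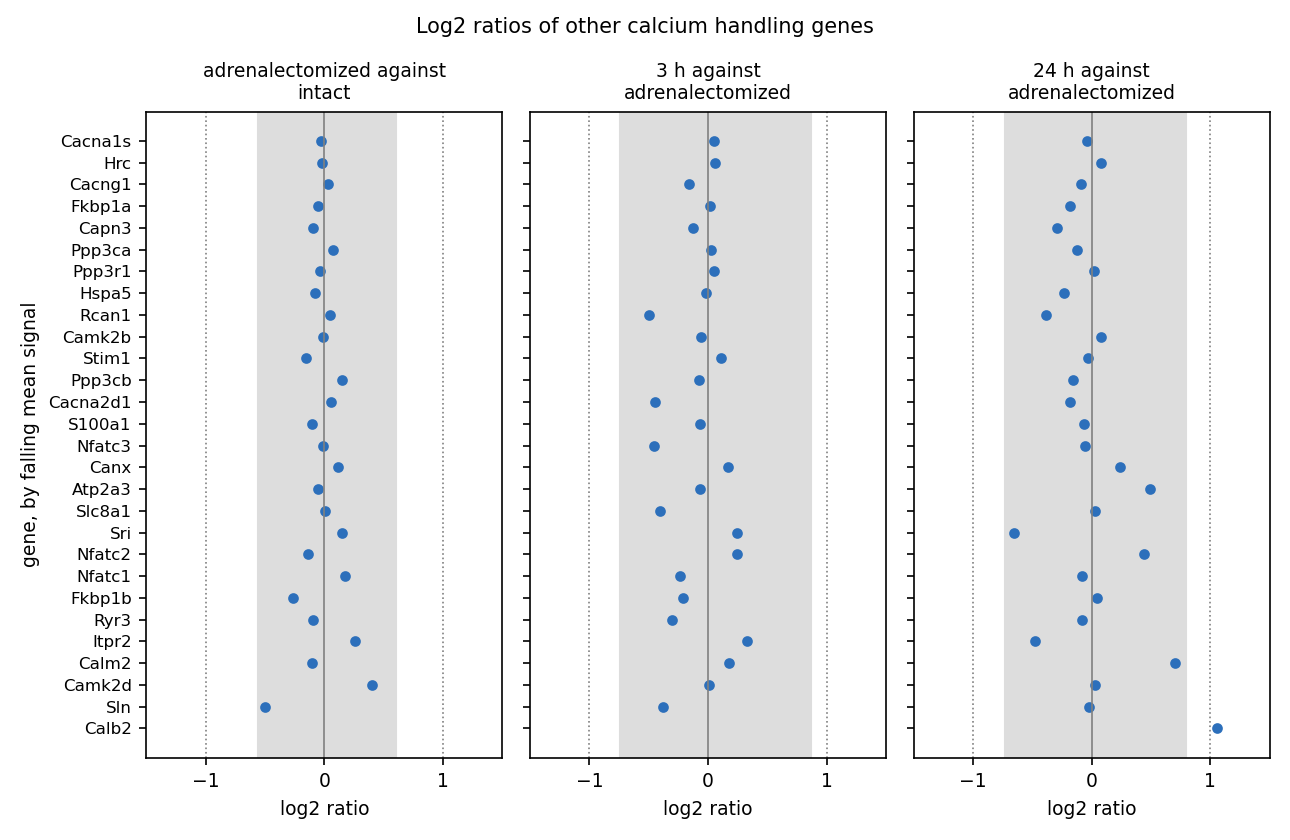
Log2 ratio (x axis) of 28 other calcium handling genes (y axis, brightest at the top) in the 3 main comparisons, with the central 95% of all genes in grey and 2-fold as dotted lines; Calb2 has no point where both arrays were below the floor. All points of the first 2 comparisons lie within 1.5-fold, and Calb2 at 24 h is the single point past 2-fold.

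Between the 2 cortisol arrays, 24 h against 3 h, 0 of the 8 members passed 2-fold, beside 3.28% of 6229 genes, and 1 passed 1.5-fold, beside 11.6%. This was Camk2a, with a log2 ratio of -0.60 by its brighter set and 0.02 by the other. Cacnb2 stood at 0.57 and Casq2 at 0.53, inside the central 95% of all genes (-0.91 to 0.82). With arrays scaled instead to the median level of ribosomal protein probe sets, Casq2 (1.02) and Cacnb2 (1.06) passed 2-fold in this comparison and Atp2a2 went from -0.10 to 0.39. Against intact mice, Atp2a2 and Camk2a were the 2 members past 2-fold both at 3 h, where 2.87% of all genes passed, and at 24 h, where 2.12% did. Under the same scaling Casq2 also passed 2-fold at 3 h against intact, at -1.11, and Cacnb2 went from 0.19 to -0.28. All 6 comparisons draw on the same 4 arrays.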

How the data were processed

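Per the labels' protocols, Trizol RNA of pooled gastrocnemius was prepared by standard Affymetrix procedures, and the scanned images were turned into linear intensity signals with MAS 5.0 by the authors. The deposited intensity columns had trimmed means of 500 to 500.6, so the authors had scaled them. The sources used here name no further settings. Among 12488 rows 66 were controls, with 20 missing values, all among controls on the 3 h array. Each array was rescaled to a trimmed mean of 500 over non-control probe sets (2% off each end), signals under 100 were set to that floor, and each gene was taken by its brightest probe set (Python 3.11.15, pandas 2.3.3). Genes entered a comparison when they reached the floor on at least 1 of its arrays. Central ranges hold 95% of these genes. Ratios, counts and error SDs were checked on simulated data. The genes given a change there were chosen well above the floor, so the check did not cover differences in dim genes. With 1 array per group no test was run.

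The members and gene lists were chosen with earlier results of these data known. Named genes were all members, other calcium handling genes past 2-fold and above the floor on both arrays or among the 3 brightest, the 3 genes nearest in pattern to the 2 members with the widest range, and leading genes of marker lists that move with a result. Further genes, among them the heart, nerve and muscle identity markers, were named after their values were seen. The alternatives were other floors, scalings and choices of probe set. RefSeq promoter windows matched 6 of the 8 members by gene ID, and gene symbols are those of the platform annotation.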

Additional observations from a re-analysis of the deposited data

How the results depend on the processing

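No paired analysis was possible because each group had 1 array, and for the same reason no replicate could be left out. No member ratio past 2-fold changed sign under the alternatives run. Of 429 member ratios under alternatives, 392 moved by less than the error SD of the comparison and 37 by more. Many of the 392 could not move. A floor of 50 or no floor changes no member, because all member probe sets read at or above the main floor. A floor of 200 cannot change Atp2a1, Atp2a2, Ryr1, Casq1 or Pvalb. Averaging cannot change members with 1 probe set, and leaving out suffixed sets cannot change a member whose set used has no suffix. The count of 392 is thus no measure of stability by itself. In adrenalectomized against intact, Camk2a stood at -1.46 with a floor of 200, -1.42 with all probe sets averaged and -0.97 by its other probe set, a setting added after the data were seen, and the members' median was -0.54 without suffixed probe sets, which leave no value for Atp2a1, Atp2a2 and Pvalb. In 3 h against adrenalectomized, Cacnb2 stood at 0.13 and Camk2a at 0.25 with a floor of 200, and Camk2a at 0.22 with sets averaged and -0.23 by its other set. In 24 h against adrenalectomized, Cacnb2 was at 0.71 with a floor of 200, and averaging probe sets took the slow fibre median to -1.004 at 3 h and -1.04 at 24 h.

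Scaling to the median level of 47 ribosomal protein probe sets moved the all-gene median at 3 h to -0.44 and the members with it: Atp2a1 to -0.43, Atp2a2 to -2.45, Ryr1 to -0.49, Casq1 to -0.50, Casq2 to -0.53, Pvalb to -0.49, Cacnb2 to 0.55 and Camk2a to 0.24. The members' median became -0.49, that of other calcium handling genes -0.46 and that of slow fibre genes -1.93. The split of genes past 2-fold went from 61.5% higher to 17.7% higher. In 24 h against 3 h the same scaling put Atp2a2 at 0.39, Casq2 at 1.02 and Cacnb2 at 1.06, and in 3 h against intact Casq2 at -1.11 and Cacnb2 at -0.28. That median falls in a gap between dim and bright probe sets. Scaling by the median deviation of the 29 above the floor, added after the data were seen, moved the all-gene median to -0.15 and the split to 46.6% higher. Genes past 2-fold numbered 44, 187, 145, 204, 132 and 177 in adrenalectomized against intact, 3 h and 24 h against adrenalectomized, 24 h against 3 h, and 24 h and 3 h against intact. With a floor of 50, or with none, they numbered 193, 371, 354, 411, 348 and 370, equal by construction, and with a floor of 200 they numbered 11, 102, 43, 89, 51 and 101. Ribosomal level scaling gave 317 in 3 h against adrenalectomized, 466 in 24 h against 3 h and 317 in 3 h against intact. Without the epidermis, hepatocyte and slow fibre lists, a setting added later, 44, 165 and 128 genes passed in the main comparisons. Dim signals limit Casq2, Cacnb2 and Camk2a.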
